A study of Mus musculus with 9 samples.

Results

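The interferon-inducible genes described here are the 73 genes, of 19938 with a single gene symbol on the array, whose symbols belong to named families of this response: the guanylate-binding proteins (Gbp), the interferon-induced proteins with tetratricopeptide repeats (Ifit), the 2'-5' oligoadenylate synthetases (Oas), the Ifi genes, the interferon regulatory factors (Irf), the immunity-related GTPases, Mx1, Mx2, Rsad2, Usp18 and a few others. The rule that picks them reads gene symbols only, although the families were selected with earlier results of these data known. The same pattern of names also took in relatives that are not known mainly as interferon targets, such as Irf2bp1, Irf2bp2, Irf2bpl, Isg20l2, Ifitm5 and Ifitm10. Another 7 probe sets named genes of these families together with a further gene and were left aside, so that Isg15, Igtp, Irgm2, Ifi47, Gbp2, Gbp6 and Oas1g among others were not analysed here.

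The samples were 9 pools of liver RNA from male C57BL/6J mice, each holding RNA of 5 mice and run on its own Affymetrix Mouse Gene 1.0 ST array. All groups first received a low fat-normal protein (LF-NP) diet, and the reference pool was taken at the end of that run-in, at week 0 and an age of 12 weeks. The other 8 pools came from mice that received a high protein (HP, 50 energy% protein) or a normal protein (NP, 15 energy%) diet on a high fat (HF, 35 energy% fat) or a low fat (LF, 10 energy%) background for 1 week (age 13 weeks) or 12 weeks (age 22 weeks, as the labels give it). These are the HF-HP, LF-HP, HF-NP and LF-NP groups at both times, and livers were removed 2 h after a calibrated meal. Carbohydrate made up the remainder of each diet, 15 and 40 energy% in HF-HP and LF-HP against 50 and 75 energy% in HF-NP and LF-NP, so that the effects of more protein and of less carbohydrate cannot be told apart. With 1 pool per diet and time, the 4 HP pools were set against the 4 NP pools, and p-values measure the spread between pools, not between mice.

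Interferons are secreted proteins by which virus-infected or activated cells alert their neighbours. Type I interferons such as interferon alpha signal through Jak kinases to a complex of Stat proteins with Irf9, which binds a DNA element called the interferon-stimulated response element (ISRE), while interferon gamma acts through Stat dimers that bind the gamma-activated sequence (GAS). In the liver, hepatocytes as well as resident macrophages and lymphocytes respond in this way, and many of the genes are also expressed at a basal level in the absence of infection. Their products sense or destroy viral RNA, block translation, attack intracellular parasites or present antigens.

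The promoters were searched for both elements. A few with a match, of genes described further on, are printed as examples. RefSeq promoter sequences (build GRCm38.p6, 250 bases before to 50 bases after each start) were at hand for 55 of the 73 members. The ISRE core GAAANNGAA, which reads TTCNNTTTC on the other strand, occurred in at least 1 promoter of 28 of these 55 genes (50.9%), against 9.76% of the 27025 genes of the table and 8.56% of its 32851 promoters. The GAS core TTCNNNGAA, the same on both strands, occurred in 13 of the 55 (23.6%), against 9.55% of all genes and 8.3% of all promoters. All 4 Gbp genes in the table held the ISRE core, as did 4 of 5 Ifit genes, 8 of 12 Ifi genes and 3 of 7 Oas genes, but 2 of 11 genes of the Irf group, 2 of 7 Ifitm genes and 1 of 5 of the other effectors. The remaining 27 of the 55 genes held no ISRE core and 42 held no GAS core in this window, and no promoter was read for 18 members. A match is only a run of letters, and binding was not measured. The stretches below run 5′ to 3′ along the gene's own strand, and capitals mark the ISRE core, or for Irf1 the GAS core. Where a gene had several promoters, the one with the most matches before its start was used. Each stretch lies entirely before the start of that promoter, which need not be the outermost start of the gene. Those of Ifit3 and Ifit3b lie inside the bounds that RefSeq gives the gene, and those of Gbp3 and Oas1a do in part. Ifit1 lies at chr19:34640768-34640825 (+), Ifit3 at chr19:34583362-34583447 (+), Ifit3b at chr19:34607758-34607843 (+), Gbp3 at chr3:142559988-142560026 (+), Irgm1 at chr11:48871424-48871462 (-), Oas1a at chr5:120907526-120907557 (-), Oas3 at chr5:120777708-120777746 (-), Rsad2 at chr12:26456551-26456583 (-) and Irf1 at chr11:53769912-53769944 (+).
Ifit1: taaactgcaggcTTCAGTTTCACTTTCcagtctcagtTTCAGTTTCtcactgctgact
Ifit3: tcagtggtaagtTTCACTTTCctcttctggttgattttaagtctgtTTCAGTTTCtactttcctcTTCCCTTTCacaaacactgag
Ifit3b: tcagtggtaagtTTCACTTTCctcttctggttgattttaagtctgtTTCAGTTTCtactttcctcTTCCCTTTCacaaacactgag
Gbp3: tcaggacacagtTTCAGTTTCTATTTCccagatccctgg
Irgm1: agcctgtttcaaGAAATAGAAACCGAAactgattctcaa
Oas1a: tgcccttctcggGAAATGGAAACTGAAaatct
Oas3: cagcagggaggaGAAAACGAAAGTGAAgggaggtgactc
Rsad2: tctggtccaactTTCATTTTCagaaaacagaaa
Irf1: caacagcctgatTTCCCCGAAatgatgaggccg

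In Ifit1, Gbp3, Irgm1, Oas1a and Oas3, 2 matches overlap, so that 3 GAA units, or TTC units on the other strand, follow each other in 1 run of capitals. Ifit3 and Ifit3b share the printed stretch base for base, 86 of 86 bases, and their transcripts are near copies of each other, so their array signals may not be fully separate. The 28 members with an ISRE core had a median HP minus NP difference of -0.2 on the log2 scale, and the 27 members in the table without one had a median of -0.06. At an unadjusted p under 0.05, 12 of those 28 and 8 of those 27 were lower in HP, against 5.66% of all genes. For the GAS core the medians were -0.19 with and -0.11 without a match. These medians are descriptions over genes that share promoters, clusters and pools.

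Across all 73 members, expression was lower in HP than in NP pools far more often than it was higher, yet no single member passed the test. Values are deposited on the log2 scale, where each unit is a factor of 2, and they stem from the robust multiarray analysis (RMA). The HP minus NP difference was negative for 60 of 73 members (82.2%), against 51.9% of all genes, with a median of -0.15, against -0.00 over all genes. At an adjusted p under 0.05 (limma, Benjamini-Hochberg over 19938 genes), 0 of 73 members were called, where 0.441% of all genes were. At an unadjusted p under 0.05, 27 members (37%) were lower in HP, against 5.66% of all genes, and 0 were higher, against 4.59%. Of the 45 members above the median level of all genes, 22 (48.9%) were lower in this way, against 9.26% of all genes above that level. At an adjusted p under 0.1, 6 members (8.22%) were lower, namely Irf2, Irf1, Iigp1, Irgm1, Ifit1 and Irf2bpl, against 0.637% of all genes, and 0 were higher.

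Counts that need no model pointed the same way. In 16 members (21.9%) all 4 HP pools lay below all 4 NP pools, a pattern seen in 2.91% of all genes. The reverse pattern, every HP pool above every NP pool, was seen in 0 members and in 1.88% of all genes. HP was below NP in each of the 4 comparisons matched for fat and week in 26 members (35.6%), against 8.11% of all genes. The reference pool, which shares the LF-NP diet and was left out of these tests, lay above all 4 HP pools for 32 members (43.8%), against 18.3% of all genes.

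In bulk liver RNA, fewer cells of a type and less RNA per cell cannot be told apart. Of 14 markers of T cells and NK cells, 13 were at or below the median level of all genes. At an unadjusted p under 0.05, 5 (35.7%) were lower in HP, against 5.66% of all genes, and 0 were higher. Cd3e (-0.28) and Cd4 (-0.25) were among the 5. The difference was negative for 12 of the 14 and positive for Cd8a (0.14) and Klrd1 (0.13), and the median of the list was -0.13. The summed level of the 14 markers, in log2, ranged from 8.39 to 8.55 in HP pools and from 8.58 to 8.65 in NP pools without overlap. The reference pool, on the LF-NP diet, was at 8.51, inside the HP range. The part of these markers in the members' values was not tested. Hepatocyte markers, which identify the tissue, summed to 16.64 to 16.74 in HP and 16.57 to 16.68 in NP pools. Of these 10 markers, 2, Tat (0.37) and Cps1 (0.22), were higher in HP at an unadjusted p under 0.05, against 4.59% of all genes. The difference was negative for 7 of the 10, and the median of the list was -0.01.

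**Figure D1:**
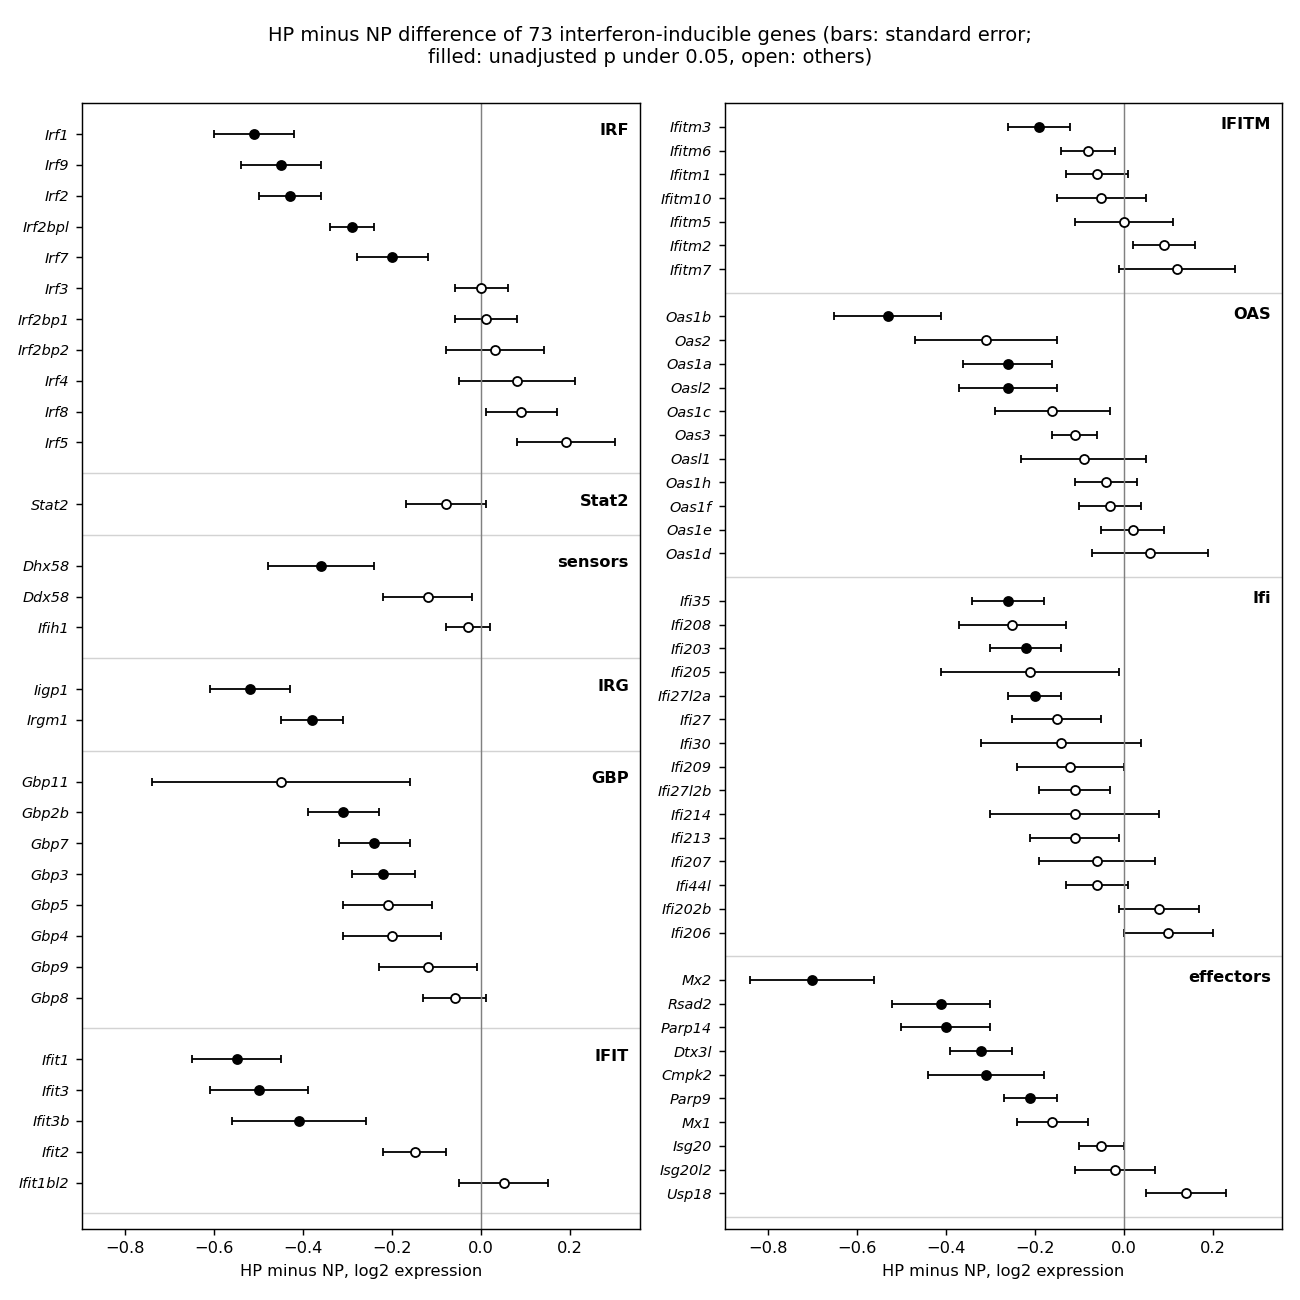
HP minus NP difference in log2 expression of the 73 members, grouped by family (x axis, points with standard errors from limma over 8 pools). Filled points have an unadjusted p under 0.05: all 27 lie left of 0, and none has an adjusted p under 0.05.

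The transcription factors that carry the signal were split. Of the 11 genes of the Irf group, 5 were lower in HP at an unadjusted p under 0.05, 0 were higher, and the median difference was -0.00. In each sentence on a gene, the value of the 1 week pool comes before that of the 12 weeks pool. Irf1, an activator that interferon gamma itself switches on, was at 6.88 and 7.06 in HF-HP and at 7.08 and 7.06 in LF-HP, against 7.61 and 7.50 in HF-NP and 7.33 and 7.70 in LF-NP, with 7.39 in the reference pool. Every HP pool lay below every NP pool and below the reference, and the means were 7.02 ± 0.09 in HP and 7.53 ± 0.16 in NP (SD, n = 4 pools each). The difference was -0.51 ± 0.09 (SE), which is a level 0.7 times that in NP, with an adjusted p of 0.0675 (limma). A second, dimmer probe set of Irf1, with a mean level of 5.68, showed a difference of -0.00, so this difference rests on the brighter one.

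Irf2, which binds the same element as Irf1 and can oppose it, was the member with the smallest adjusted p. It was at 9.16 and 8.86 in HF-HP and at 9.39 and 9.14 in LF-HP, against 9.58 and 9.39 in HF-NP and 9.65 and 9.67 in LF-NP, with 9.48 in the reference pool. HP was below NP in all 4 matched comparisons, although the highest HP pool and the lowest NP pool met at 9.39. The difference was -0.43 ± 0.07 (SE) with an adjusted p of 0.0515 (limma), just outside the threshold. Irf2 was also 0.21 lower in HF than in LF and 0.18 lower at 12 weeks than at 1 week, both at an unadjusted p under 0.05.

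Irf9, the DNA-binding subunit of the complex that type I interferon assembles, was at 7.89 and 7.82 in HF-HP and at 7.66 and 7.49 in LF-HP, against 8.31 and 8.02 in HF-NP and 8.11 and 8.24 in LF-NP, with 8.24 in the reference pool. The groups did not overlap, and the LF-HP pools were the lowest of all. The difference was -0.45 ± 0.09 (SE), with an adjusted p of 0.115 (limma). Stat2, which joins Irf9 in that complex, showed no such separation: it was at 8.87 and 8.87 in HF-HP and at 8.62 and 8.91 in LF-HP, against 8.98 and 8.73 in HF-NP and 8.93 and 8.96 in LF-NP. Its difference of -0.08 ± 0.09 (SE) was within its error and turned to 0.01 without the LF-HP pool of 1 week.

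Irf7, the factor that amplifies interferon alpha production, averaged 8.32 ± 0.15 in HP and 8.51 ± 0.10 in NP pools (SD, n = 4 each), and its reference value of 8.63 equalled the highest NP pool. The difference of -0.20 ± 0.08 (SE) had an adjusted p of 0.468 (limma), and the HP and NP pools overlapped. Irf2bpl, a relative of the Irf2 corepressors, was at 6.49 and 6.54 in HF-HP and at 6.79 and 6.73 in LF-HP, against 6.83 and 6.78 in HF-NP and 7.05 and 7.03 in LF-NP. Its difference was nearly the same in the 4 matched comparisons, from -0.24 to -0.34, and the adjusted p was 0.0886 (limma). Irf3, which acts upstream of interferon and is not itself induced by it, had means of 8.28 in both HP and NP. Irf4, Irf5 and Irf8, factors of lymphoid and myeloid cells, had differences of 0.08, 0.19 and 0.09, none with an unadjusted p under 0.05.

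The immunity-related GTPases and the guanylate-binding proteins, which attack the vacuoles of intracellular pathogens, are classical targets of interferon gamma. Both immunity-related GTPases with a value were lower in HP at an unadjusted p under 0.05. Iigp1 was at 9.06 and 8.68 in HF-HP and at 9.11 and 9.11 in LF-HP, against 9.55 and 9.51 in HF-NP and 9.52 and 9.44 in LF-NP, with 9.59 in the reference pool. The NP pools lay close together and the HP pools were all lower, the HF-HP pool of 12 weeks by the most. The difference was -0.52 ± 0.09 (SE), with an adjusted p of 0.0754 (limma).

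Irgm1, which regulates the other GTPases of its family, was at 7.88 and 7.95 in HF-HP and at 7.98 and 8.03 in LF-HP, against 8.45 and 8.24 in HF-NP and 8.29 and 8.38 in LF-NP, with 8.27 in the reference pool. Its HP pools were tightly grouped at 7.96 ± 0.06 and its NP pools at 8.34 ± 0.09 (SD, n = 4 each). The difference was -0.38 ± 0.07 (SE), with an adjusted p of 0.0797 (limma). At 1 week it was -0.57 on the HF and -0.32 on the LF background, and at 12 weeks -0.29 and -0.35.

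Each of the 8 Gbp genes had a lower mean in HP, by a median of -0.22, and 3 of them, Gbp2b, Gbp3 and Gbp7, were lower at an unadjusted p under 0.05. The genes lie in 2 clusters, and the 3 belong to 1 of them. In the cluster with Gbp5, Gbp7, Gbp3 and Gbp2b the median difference was -0.23, and in the cluster with Gbp8, Gbp9, Gbp4 and Gbp11 it was -0.16 with 0 of 4 at an unadjusted p under 0.05. Gbp3 was at 6.19 and 6.21 in HF-HP and at 6.15 and 6.34 in LF-HP, against 6.53 and 6.47 in HF-NP and 6.39 and 6.37 in LF-NP, and its reference value of 6.28 fell inside the range of the HP pools. The groups were separate but the margin was small, and the difference was -0.22 ± 0.07 (SE; adjusted p 0.297, limma). Gbp5 was the other Gbp gene without overlap, with 4.23 ± 0.18 in HP and 4.45 ± 0.08 in NP pools (SD, n = 4 each). Gbp11, which RefSeq lists as a transcribed pseudogene, spread most widely of all members, over 2.00 between its lowest and highest pool: it was at 6.64 and 5.57 in HF-HP and at 5.91 and 6.54 in LF-HP, against 6.25 and 6.06 in HF-NP and 7.56 and 6.59 in LF-NP. Its difference of -0.45 ± 0.29 (SE) therefore had an unadjusted p of 0.165 in limma.

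**Figure D2:**
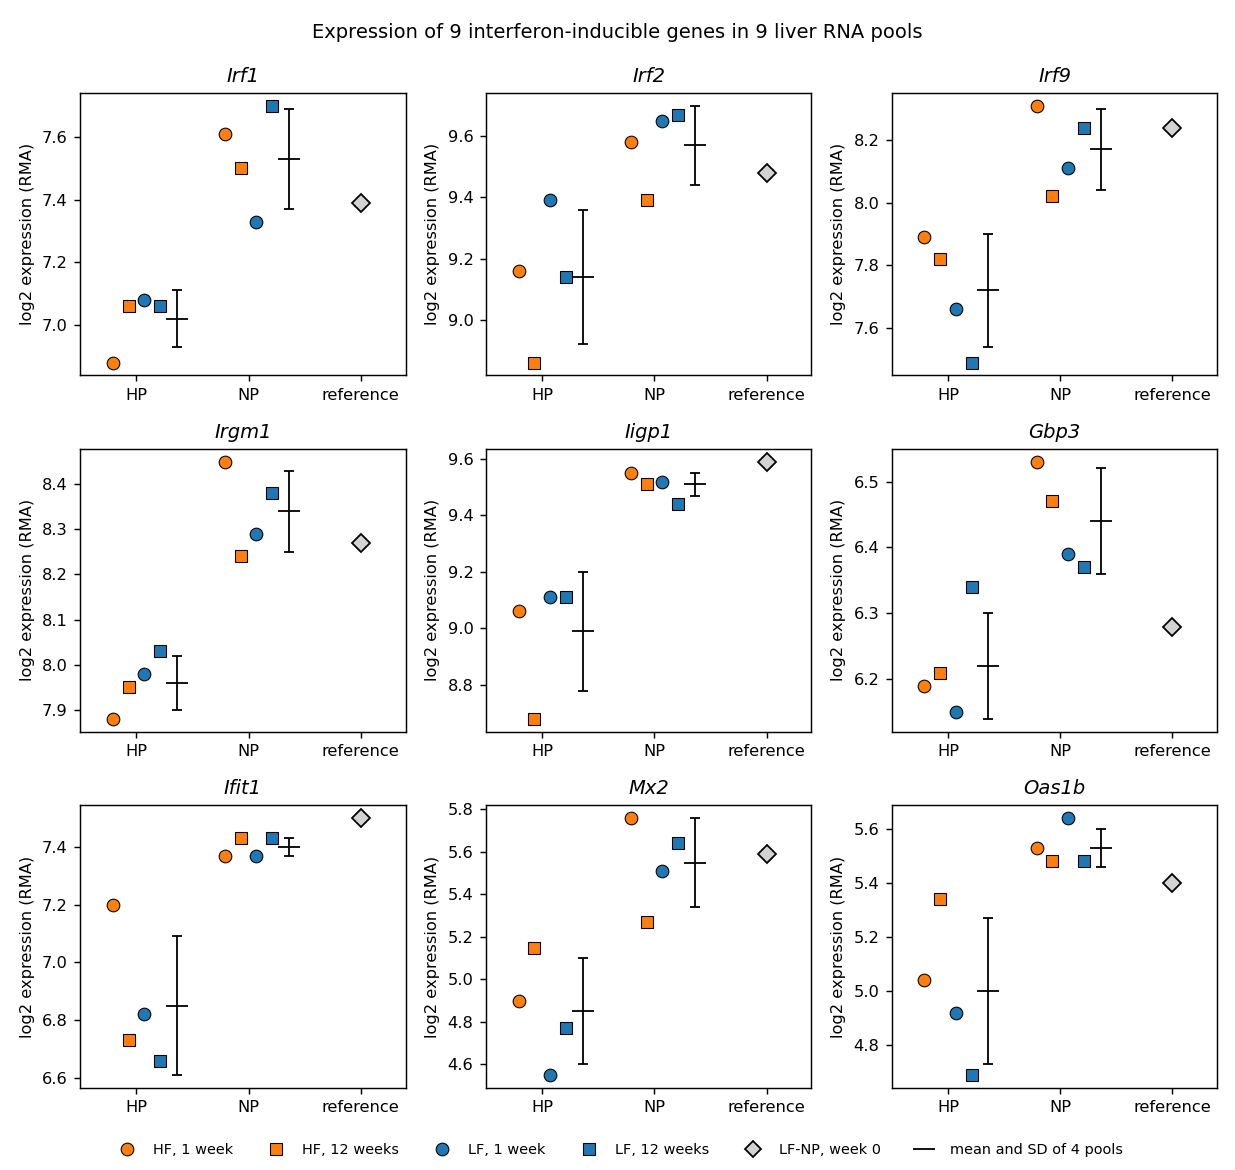
Log2 expression (RMA) of 9 members in the HP, NP and reference pools, each point 1 pool of 5 mice and each bar the mean and SD of 4 pools. Each panel has its own y axis, which does not start at 0. Of the 9 genes drawn, only Irf2 has an HP pool level with an NP pool (9.39). These 9 are not typical of the families: all HP pools lay below all NP pools in 16 of 73 members (21.9%), against 2.91% of all genes.

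The Ifit genes, whose products bind foreign RNA and block its translation, lie in 1 cluster, and 3 of the 5 were lower in HP at an unadjusted p under 0.05. Ifit1 was at 7.20 and 6.73 in HF-HP and at 6.82 and 6.66 in LF-HP, against 7.37 and 7.43 in HF-NP and 7.37 and 7.43 in LF-NP, with 7.50 in the reference pool. The NP pools were almost identical, while the HP pools spread over a wider range below them. The difference was -0.55 ± 0.10 (SE), a level 0.683 times that in NP, with an adjusted p of 0.089 (limma). Without the HF-HP pool of 1 week, the HP pool nearest to NP, the difference was -0.66, and Ifit1 then passed the test. With any other single pool left out it did not pass.

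Ifit3 likewise had every HP pool below every NP pool, at 7.23 and 6.73 in HF-HP and at 6.81 and 7.06 in LF-HP, against 7.42 and 7.37 in HF-NP and 7.57 and 7.48 in LF-NP, and its reference value was 7.56. The difference was -0.50 ± 0.11 (SE; adjusted p 0.163, limma). Its near copy Ifit3b had a difference of -0.41 at a low level of 2.98 ± 0.12 in HP and 3.39 ± 0.30 in NP pools (SD, n = 4 each), near the bottom of the array's range of 1.41 to 14.46. Ifit2 was at -0.15, with an unadjusted p of 0.0648 in limma, and Ifit1bl2, at a level under 3 in every pool, was at 0.05.

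Active oligoadenylate synthetases make a second messenger that activates an RNA-degrading enzyme, and enzyme activity was not measured for the genes counted here. Of the 11 Oas genes, 3 were lower in HP at an unadjusted p under 0.05 and 9 had a negative difference, with a median of -0.11. Oas1b, which gives resistance to flaviviruses in some mouse strains but is truncated in C57BL/6J and listed by RefSeq as a transcribed pseudogene, was at 5.04 and 5.34 in HF-HP and at 4.92 and 4.69 in LF-HP, against 5.53 and 5.48 in HF-NP and 5.64 and 5.48 in LF-NP, with 5.40 in the reference pool. All HP pools lay below all NP pools, the LF-HP pools by the most, and the difference was -0.53 ± 0.12 (SE; adjusted p 0.16, limma). Oas1a and Oasl2 both had a difference of -0.26 with overlapping pools. Oas3 differed by only -0.11 ± 0.05 (SE), yet its pools did not overlap, at 4.98 ± 0.05 in HP and 5.10 ± 0.01 in NP (SD, n = 4 each).

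The other antiviral effectors included the largest difference of all members. Mx2 belongs to the antiviral Mx family of dynamin-like GTPases, but RefSeq lists both Mx2 and Mx1 as transcribed pseudogenes, and C57BL/6J mice make no functional Mx protein, so the values are of the transcripts alone. Mx2 was at 4.90 and 5.15 in HF-HP and at 4.55 and 4.77 in LF-HP, against 5.76 and 5.27 in HF-NP and 5.51 and 5.64 in LF-NP, with 5.59 in the reference pool. The groups did not overlap, although the HF pools of 12 weeks, 5.15 in HP and 5.27 in NP, came close. The difference was -0.70 ± 0.14 (SE), a level 0.616 times that in NP, with an adjusted p of 0.123 (limma). Without the HF-NP pool of 12 weeks, the NP pool nearest to HP, the difference was -0.88, and Mx2 then passed the test. With any other single pool left out it did not pass. Its neighbour Mx1 was at -0.16 with overlapping pools.

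Parp14, Dtx3l and Parp9, which lie side by side and encode ADP-ribosyltransferases and a ubiquitin ligase that work together, had differences of -0.40, -0.32 and -0.21, each without overlap between the groups. For Parp14 the HP pools were at 7.55 and 7.22 in HF and at 7.17 and 7.17 in LF, against 7.67 and 7.57 in HF-NP and 7.67 and 7.80 in LF-NP, so that 3 HP pools agreed closely and the HF-HP pool of 1 week stood nearer to NP. Rsad2, known as viperin, which makes a chain-terminating nucleotide, was at 6.59 and 6.70 in HF-HP and at 6.29 and 6.27 in LF-HP, against 6.86 and 6.78 in HF-NP and 7.08 and 6.79 in LF-NP. Its neighbour Cmpk2, a mitochondrial nucleotide kinase, was at 6.09 and 6.00 in HF-HP and at 5.41 and 5.52 in LF-HP, against 6.20 and 5.93 in HF-NP and 6.08 and 6.06 in LF-NP. In both genes the LF-HP pools were clearly the lowest, but only Rsad2 kept its HF-HP pools below all NP pools. Usp18, which removes Isg15 from proteins and damps the response, differed by 0.14 in the other direction, with an unadjusted p of 0.169 in limma.

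Among the cytosolic RNA sensors, Dhx58 was lower in HP at an unadjusted p under 0.05, and Ddx58 and Ifih1 were not. Dhx58, also called LGP2, was at 6.91 and 6.91 in HF-HP and at 6.71 and 6.59 in LF-HP, against 7.18 and 6.84 in HF-NP and 7.28 and 7.28 in LF-NP. Only the HF-NP pool of 12 weeks lay within the HP range, and the difference was -0.36 ± 0.12 (SE; adjusted p 0.333, limma). Ddx58, also called RIG-I, differed by -0.12 ± 0.10 (SE), and Ifih1, also called MDA5, stayed within 8.16 to 8.29 in all 9 pools.

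Of the 15 Ifi genes, 13 had a negative difference, with a median of -0.12, and 3 (Ifi203, Ifi27l2a and Ifi35) were lower at an unadjusted p under 0.05. Ifi35 was the only one without overlap, at 7.66 and 7.79 in HF-HP and at 7.53 and 7.59 in LF-HP, against 7.86 and 7.83 in HF-NP and 7.97 and 7.98 in LF-NP. Its difference was -0.26 ± 0.08 (SE; adjusted p 0.267, limma). The 9 genes of the p200 cluster, which encode DNA-binding proteins of the innate response, had a median difference of -0.11. Ifi205 and Ifi214 of that cluster varied by 1.39 and 0.99 between pools, with differences of -0.21 ± 0.20 and -0.11 ± 0.19 (SE), and leaving out 1 pool took them to 0.00 and 0.03.

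The Ifitm genes, which encode membrane proteins that hinder virus entry, included the member with the highest level and had small differences, with a median of -0.05. Ifitm3 averaged 11.97 ± 0.09 in HP and 12.15 ± 0.15 in NP pools (SD, n = 4 each) and was the only one of the 7 at an unadjusted p under 0.05. Its reference value of 11.97 equalled the HP mean. For Ifitm1, Ifitm2 and Ifitm6 the differences were -0.06, 0.09 and -0.08, within or close to their standard errors of 0.07, 0.07 and 0.06.

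For the 27 members that were lower in HP at an unadjusted p under 0.05, the reference pool can be set beside the HP and NP pools. It lay above the HP mean in 26 of them, above all 4 HP pools in 20, and inside the range of the NP pools in 16. The 27 were picked for low HP values, so a pool outside the HP group would tend to lie above them. These counts therefore add no support to the difference. Over all 73 members, picked without regard to p, the reference pool lay above all 4 HP pools in 32 (43.8%), against 18.3% of all genes. These are values of 1 pool, with no test.

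**Figure D3:**
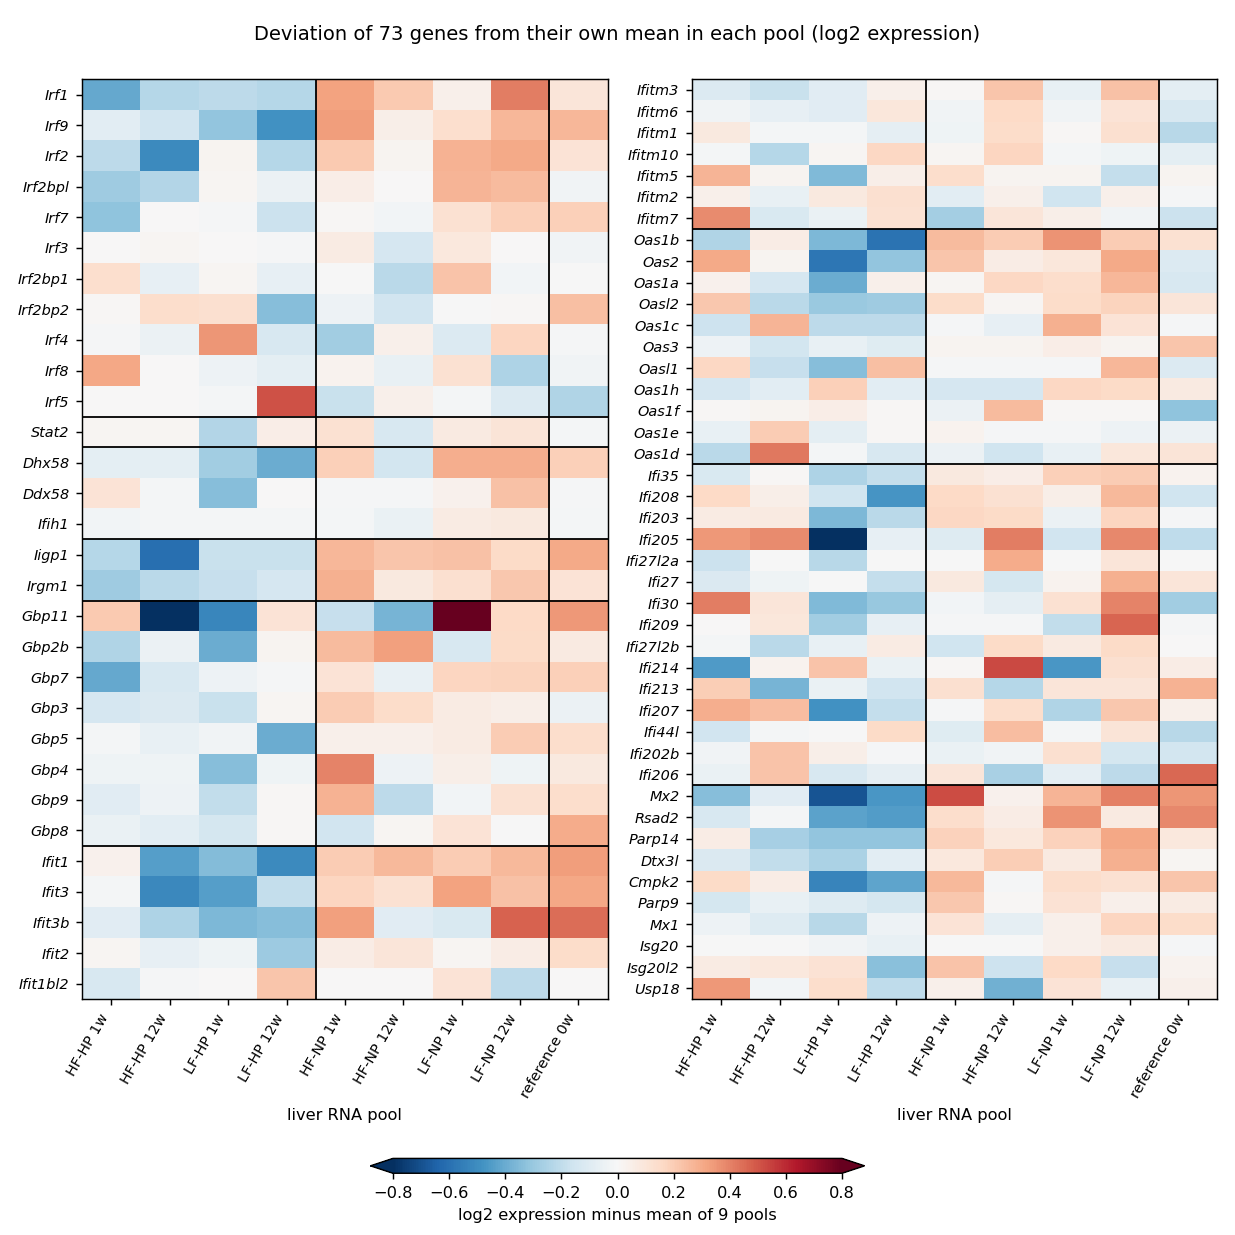
Deviation of each of the 73 members from its own mean over the 9 pools, in log2 units (colour scale from -0.8 to 0.8), with genes in rows and the HP, NP and reference pools in columns. The LF-HP pool of 1 week has the lowest median deviation over the members (-0.14) and the LF-NP pool of 12 weeks the highest (0.15).

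The median HP minus NP difference was smaller on the HF than on the LF background. Between the HF pools it was -0.09 at 1 week and -0.08 at 12 weeks, with 44 and 49 of 73 members negative (60.3% and 67.1%), against 44.4% and 44.9% of all genes. Between the LF pools it was -0.22 at both times, with 62 and 59 of 73 members negative (84.9% and 80.8%), against 50.6% and 50.8% of all genes. Genes at a higher level shared part of this contrast at 12 weeks. Of all genes above the median level, 32.3% were negative between the HF pools of 12 weeks and 65% between the LF pools, and of the 45 members above that level 62.2% and 88.9% were. At 1 week the shares were 53.5% in HF and 54.9% in LF for those genes, and 60% and 91.1% for those members. The LF-HP pool of 1 week held the lowest value for 23 members, against 10.2% of all genes, and the LF-NP pool of 12 weeks held the highest for 20 members, against 11.4%.

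The test of this contrast, the HP minus NP difference in HF minus that in LF, called 0 members at an adjusted p under 0.05, as it called 0% of all genes. At an unadjusted p under 0.05 it was positive for 10 members (13.7%), against 4.79% of all genes and 7.2% of those above the median level, and negative for 1, Ifi214 (1.37%), against 2.23%. The 10 were Cmpk2, Dhx58, Ifi205, Ifi207, Ifi208, Ifi30, Ifi35, Oas2, Rsad2 and Usp18. HP was below NP in both HF comparisons for 2 of them and above NP in both for 3, whereas it was below NP in both LF comparisons for 9. The median of the contrast was 0.13 over the members and 0.03 over all genes, and above the median level it was 0.16 over 45 members, of which 8 were positive at that p (17.8%), and 0.08 over all genes.

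Ifi30, a lysosomal thiol reductase of antigen-presenting cells, had the smallest p of the 10. It was at 8.23 and 7.92 in HF-HP against 7.80 and 7.75 in HF-NP, and at 7.47 and 7.52 in LF-HP against 7.94 and 8.22 in LF-NP. HP was thus higher on the HF background and lower on the LF background, and the contrast was 0.88 ± 0.19 (SE) with an adjusted p of 0.582 (limma). Oas2 was at 6.94 and 6.66 in HF-HP against 6.86 and 6.70 in HF-NP, and at 6.06 and 6.32 in LF-HP against 6.73 and 6.94 in LF-NP. Its HP and NP pools overlapped on the HF background and were apart on the LF background, and the contrast was 0.67 ± 0.21 (SE; adjusted p 0.687, limma). Irf1, Irf2, Irgm1, Iigp1 and Gbp3 had contrasts between -0.29 and -0.08, none with an unadjusted p under 0.05.

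**Figure D4:**
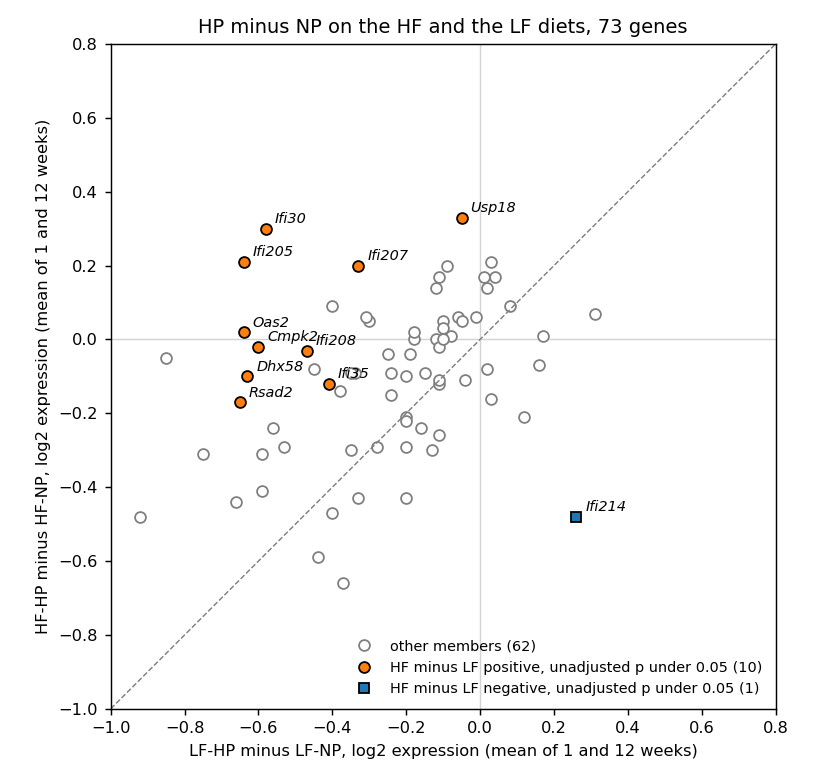
HP minus NP difference in log2 expression of the 73 members on the HF background (y axis) against that on the LF background (x axis), each the mean of 1 and 12 weeks, with the dashed line marking equal differences. The 10 orange points lie above the line with an unadjusted p under 0.05, and the blue square is Ifi214, below the line at -0.48 in HF and 0.26 in LF.

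Markers of Kupffer cells and other macrophages moved with this contrast. Of 13 such markers, 8 had a positive contrast at an unadjusted p under 0.05, and the median of the list was 0.57. That p was met by a positive contrast in 4.79% of all genes and 7.2% of those above the median level. Their median HP minus NP difference was 0.17 on the HF and -0.46 on the LF background. Their summed level, in log2, ranged from 11.43 to 12.28 in HP pools and from 11.81 to 12.36 in NP pools, with the lowest value in the LF-HP pool of 1 week. Clec4f, the defining lectin of Kupffer cells, was at 9.07 and 9.05 in HF-HP and at 8.58 and 8.77 in LF-HP, against 8.96 and 9.22 in HF-NP and 9.05 and 9.30 in LF-NP. The part of these markers in the members' values was not tested. Endothelial markers had 2 of 10 with a positive contrast at an unadjusted p under 0.05 and a median contrast of 0.28. For HP against NP, at an unadjusted p under 0.05, 1 of the 13 macrophage markers (Clec4f, -0.26), 1 of 9 dendritic cell markers and 1 of 10 endothelial markers (Kdr, -0.15) were lower. Another endothelial marker (Lyve1, 0.53), 1 of 9 B cell and plasma cell markers (Sdc1, 0.34) and 1 of 10 stellate cell markers (Rgs5, 0.33) were higher. For the neutrophil and monocyte and the cholangiocyte markers, 0 were either. Of all genes, 5.66% were lower and 4.59% higher at that p.

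Dietary fat and time were compared across the same 8 pools. Between HF and LF, 0 members were called at an adjusted p under 0.05, as were 0% of all genes, and 6 members (8.22%) had an unadjusted p under 0.05, against 3.33% of all genes. Gbp7, Irf2, Irf2bpl and Oas1h were lower in HF, and Ifi203 and Ifi207 were higher. Between 12 weeks and 1 week, 0 members were called, where 0.00502% of all genes were, and 10 members (13.7%) had an unadjusted p under 0.05, against 7.71%. Of the 45 members above the median level, 5 (11.1%) were lower and 0 higher at 12 weeks in this way. Of all genes above that level, 9.27% were lower and 2.2% higher, so these members were near the share of such genes. Usp18 was 0.32 lower and Ifi27l2a 0.20 higher at 12 weeks. Whether the HP minus NP difference itself changed between 1 and 12 weeks was tested as well: 0 members were called, as were 0% of all genes, and 3 (4.11%), Gbp4, Ifi206 and Irf4, had an unadjusted p under 0.05, against 2.62% of all genes.

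Genes of the same pathway outside these families were examined by list. Of all genes, 5.66% were lower and 4.59% higher in HP at an unadjusted p under 0.05, and 51.9% of differences were negative. Of the 16 interferons with a value, 14 were at or below the median level of all genes. Only Ifna2 (-0.36 ± 0.10 SE) was lower in HP at an unadjusted p under 0.05, which is 6.25% of the list and close to the share of all genes. Of the receptors and Jak kinases, 0 of 9 had an unadjusted p under 0.05, with a median of 0.00, and Jak1 and Jak2 differed by -0.08 and -0.11. Negative regulators of the Jak-Stat pathway had 1 of 12 lower (8.33%; Pias3, -0.24). Sensors and adaptors upstream of interferon had 3 of 19 lower (15.8%) and 1 higher (5.26%). For the antigen processing genes that interferon gamma drives, all 17 differences were negative and the median was -0.22. Of these 17 genes, 6 (35.3%) were lower at an unadjusted p under 0.05. The mean level of the 17 was 8.15 to 8.31 in HP pools and 8.38 to 8.49 in NP pools. In the reference pool, on the LF-NP diet, it was 8.29, inside the HP range. Psmb8, a subunit of the immunoproteasome, was at 6.92 and 7.12 in HF-HP and at 7.23 and 7.13 in LF-HP, against 7.34 and 7.40 in HF-NP and 7.46 and 7.62 in LF-NP. Its HP and NP pools did not overlap, and the difference was -0.36 ± 0.07 (SE), with an adjusted p of 0.083 (limma). Its neighbour Psmb9 had a difference of -0.31 (adjusted p 0.089, limma). The reference pool was at 7.27 for Psmb8, below every NP pool, and at 7.94 for Psmb9, inside the HP range. Of 50 other interferon-stimulated genes, 15 (30%) were lower and 2 (4%) higher at an unadjusted p under 0.05. Their median was -0.14, and Tmem140 had the smallest p (-0.47 ± 0.09 SE; adjusted p 0.0997, limma). None of these lists held a gene with an adjusted p under 0.05.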

How the data were processed

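Pools of liver RNA, 5 mice each, were measured on Affymetrix Mouse Gene 1.0 ST arrays, 1 per pool. The deposited values are on the log2 scale and were made by the authors with RMA, which corrects background, quantile normalises the arrays and summarises each probe set, so a shift shared by all genes would be removed. The study's methods describe probe sets regrouped by gene, but the deposited rows carry the array's own probe sets. Of 35556 probe sets, 21789 had 1 symbol in the platform annotation, and the brightest was kept for each of 19938 genes. Array medians were between 5.83 and 5.89, and arrays correlated at 0.988 to 0.993. Arrays carry no read depth, so the precision is set by the number of pools.

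Protein, fat and week were fitted as additive terms over the 8 diet pools with limma 3.58.1 in R 4.3.3, and interactions with 1 term more. The fit has 4 residual degrees of freedom, to which the prior adds 3.52. P-values were adjusted by Benjamini-Hochberg over 19938 genes. No filter on level was used. The fit was tested on simulated data with independent, normally spread values. At an adjusted p under 0.05, 52% of 50 genes with an added HP difference of 0.5 were called. The share was 90% at 1, 98% at -1 and 0.0405% of genes without change. Differences of 0.5 or less can thus often be missed. The members and lists were chosen with earlier results of these data known. Genes named by rule were up to 4 per family with the smallest unadjusted p, the Ifitm genes as a family of their own, the 6 with the widest range and Stat2, Irf1, Irf7 and Irf9. From the lists, those past the test or else the 2 with the smallest p were named. Other genes named were chosen after their values were seen. The alternatives were other covariates, blocks, prior, weights, centring, level filter, probe set choice, the reference pool added to the fit and subsets of pools.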

Additional observations from a re-analysis of the deposited data

Results flagged for a closer look

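In 12 of 76 groups of 4 pools (the HP or the NP pools of 38 named genes), 1 pool stood apart from the other 3 by Dixon's criterion for 4 values. About 1 in 20 groups of independent, normally spread replicates would meet it. Here the 4 pools of a group differ in fat and week, and all groups share the same pools, so the count cannot be set against that rate. Among the HP pools, the HF-HP pool of 1 week stood apart for Irf1 (6.88, the others 7.06 to 7.08), Parp14 (7.55, the others 7.17 to 7.22), Oasl2 (7.19, the others 6.68 to 6.76) and Ifih1 (8.19, the others 8.20). It was low for Irf1 and high for Parp14 and Oasl2. The LF-HP pool of 12 weeks was low for Gbp5 (3.96, the others 4.30 to 4.34), the HF-HP pool of 12 weeks for Iigp1 (8.68, the others 9.06 to 9.11) and the LF-HP pool of 1 week for Stat2 (8.62, the others 8.87 to 8.91).

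Among the NP pools, the LF-NP pool of 12 weeks was high for Ddx58 (8.63, the others 8.39 to 8.43) and Gbp5 (4.56, the others 4.40 to 4.42). The LF-NP pool of 1 week was low for Ifi203 (8.01, the others 8.21 to 8.23) and high for Oas3 (5.12, the others 5.09), and the HF-NP pool of 12 weeks was low for Oasl2 (6.99, the others 7.12 to 7.15).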

How the results depend on the processing

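The number of members called lower in HP at an adjusted p under 0.05 was 0 and became 1 with no fat or week term (Irgm1), 1 with an intensity trend of the prior (Irf2), 1 with the mean of all probe sets (Irf2), 2 with array weights (Iigp1 and Mx2), 3 with arrays centred on their medians (Ifit1, Iigp1 and Irf2), 7 among genes above the median level, where fewer genes were tested (Ifit1, Iigp1, Irf1, Irf2, Irf2bpl, Irf9 and Irgm1), and 6 at an adjusted p under 0.1. Leaving out 1 pool gave 0 to 1 (Ifit1 without the HF-HP pool of 1 week, Mx2 without the HF-NP pool of 12 weeks). At an unadjusted p, the 27 lower members became 8 in the HF pools alone, 16 at 1 week alone and 8 at 12 weeks alone, with fewer pools in each, and 20 to 32 with 1 pool left out; the 0 higher became 1 in the HF pools alone, 1 at 1 week alone, and 0 to 1 with 1 pool left out. The median difference of -0.15 stayed between -0.22 and -0.08 under the alternatives run. Of 748 differences of named genes under alternatives, 14 had the opposite sign: Ddx58 (0.05), Ifi205 (0.21), Ifih1 (0.01) and Stat2 (0.02) in the HF pools alone, Stat2 at 12 weeks alone (0.05), Ifitm2 at 12 weeks alone (-0.01), Ifitm1 at 1 week alone (0.05), and Ifi214 with array weights (0.01), in the LF pools alone (0.26) and at 1 week alone (0.12). With 1 pool left out, Ifi205 ranged from -0.44 to 0.00, Ifi214 from -0.36 to 0.03 and Stat2 from -0.17 to 0.01. The causes were not tested. In a paired fit with the HP and NP pools of the same fat level and week as blocks, 0 members were called and 28 were lower at an unadjusted p; with the reference pool added to the fit, these were 0 and 27. The precision is limited by 4 pools a side.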
